A study of Arabidopsis thaliana with 6 samples.

Results

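Pectin methylesterases were followed in whole seedlings of Arabidopsis thaliana, in the cdkf;1-2 mutant and in wild type. The family was taken as 60 loci, chosen by gene family and given by locus tag. A locus counted as measured when the array annotation listed a probe set, a group of short oligonucleotides that report 1 transcript, for that gene alone. This held for 40 of the 60 loci, among 13286 genes measured in this way on the whole array, and each of the 40 had a single such probe set. Of the other 20 loci, 17 were not listed in the annotation used here, and 3 shared a probe set with another gene.

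Transcript levels had been measured on expression arrays in 6 samples. The 3 wild type samples were of the accession Col-0, and the 3 mutant samples carried the T-DNA insertion cdkf;1-2 in the same accession. All seedlings were 7 days old, a count that the labels start at germination in one place and at sowing in another. They grew at 22 °C on a solid medium containing 0.5% sucrose, in a day of 8 h light and 16 h dark, and were taken 4 h into the light. The samples are labelled as biological replicates, but nothing says that each came from its own culture, so p-values measure the spread between these samples. cdkf;1-2 is 1 allele, and whole seedlings mix all organs, so fewer cells of a type and less RNA per cell cannot be told apart.

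Pectin is laid down in the plant cell wall as a chain of galacturonic acid that carries many methyl esters. Pectin methylesterases remove these esters in the wall. The freed acid groups can be bridged by calcium, which stiffens the wall, or the bare chain can be cut by polygalacturonases and pectate lyases, which softens it. Many members of the family are made with an extra domain that resembles the pectin methylesterase inhibitors, small proteins that bind the enzyme and block it, and subtilisin-type proteases remove this domain before the enzyme reaches the wall. In seedlings these enzymes act in elongating hypocotyls and roots, and a separate set of members works in pollen. CDKF;1 is a kinase found in plants that switches on other cyclin-dependent kinases, and per the study it also phosphorylates the tail of RNA polymerase II. The comparison of mutant with wild type asks which transcripts differ in seedlings of this age when this kinase gene is disrupted.

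Signals are given after quantile normalization, which puts all 6 arrays on a common distribution. A difference is the mutant mean minus the wild type mean of log2(signal + 16), with the standard error (SE) from limma, and a gene passed the test at a Benjamini-Hochberg adjusted p under 0.05 over all 22746 probe sets. Adding 16 understates the change of dim transcripts. Signals of different probe sets do not rank transcripts against each other. Precision is limited by the number of arrays. Across probe sets, which do not count as independent, wild type arrays correlated with each other at r = 0.982 or more, mutant arrays at 0.973 or more, and arrays of different genotype at 0.952 to 0.960. The deposited column medians ran from 85.4 to 104 in wild type and from 64.4 in mutant replicate 1 to 115 in mutant replicate 3. The 25S ribosomal RNA control, relative to each array's median, was 2.04-fold higher in the mutant (log2 1.03, SDs of 0.13 for wild type and 0.19 for the mutant, with a two-sided exact permutation p = 0.1 at n = 3 per group, the smallest that 3 against 3 samples can give). The ratio of 3' to 5' control signals, which reflects RNA integrity and labelling, was higher in the mutant for actin on both of its probe set pairs (log2 0.12 and 0.30), lower for ubiquitin on both (log2 -0.39 and -0.22), and differed in sign between the pairs for GAPDH (log2 -0.25 and 0.19). The part of these controls in the results below was not tested. The genotype labels could not be checked on the CDKF;1 transcript, which was not analysed here. The tissue markers could be checked only in part. RCA, the Rubisco activase of green tissue, had signals of 10945, 10945 and 10145 in the wild type samples and 10828, 8627 and 9142 in the mutant samples. EXPA7, an expansin of root hair cells, is described with the falls below, and 0 of 4 seed reserve and 0 of 4 flower markers were measured.

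In cdkf;1-2 seedlings 5 of the 40 measured pectin methylesterase genes rose, 3 fell and 32 did not pass the test. The rises were led by ATPMEPCRB (AT4G02330, also named PME41) at 5.94-fold and ATPMEPCRD (AT2G43050) at 3.05-fold. The falls were led by the neighbouring genes AT5G04960 and AT5G04970, at 3.62-fold and 2.15-fold on the scale with 16 added. Over all probe sets tested limma called 14.4%, with 6.94% higher and 7.42% lower. Of the members it called 8 of 40, or 20%. The gap to the array share varied with the processing. On the deposited signals 4 of 40 members were called against 1.44% of probe sets, and with 64 added 9 of 40 against 16.4%. Without wild type replicate 2 it was 6 of 40 against 6.58%, and without the 40% dimmest probe sets 8 of 13 against 26.2%. That filter uses the mean over both genotypes, so a gene bright in a single genotype can be kept by it. AT5G04970, which passed with all probe sets, is left out by it. Whether the members differ from the array in the share called was not tested. On the quantile-normalized signals the median difference of the 40 members was log2 -0.02 against -0.01 over all probe sets. There 20 members lay above 0 and 20 below. Of all calls on the array 48.3% were higher in the mutant. That share was 58.5% with arrays centred on their medians and 80.4% when the hybridisation spikes set the scale, which moves the median of all probe sets by 0.18. The members split into 5 higher and 2 lower under median centring and 6 higher and 2 lower under spike scaling.

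**Figure D1:**
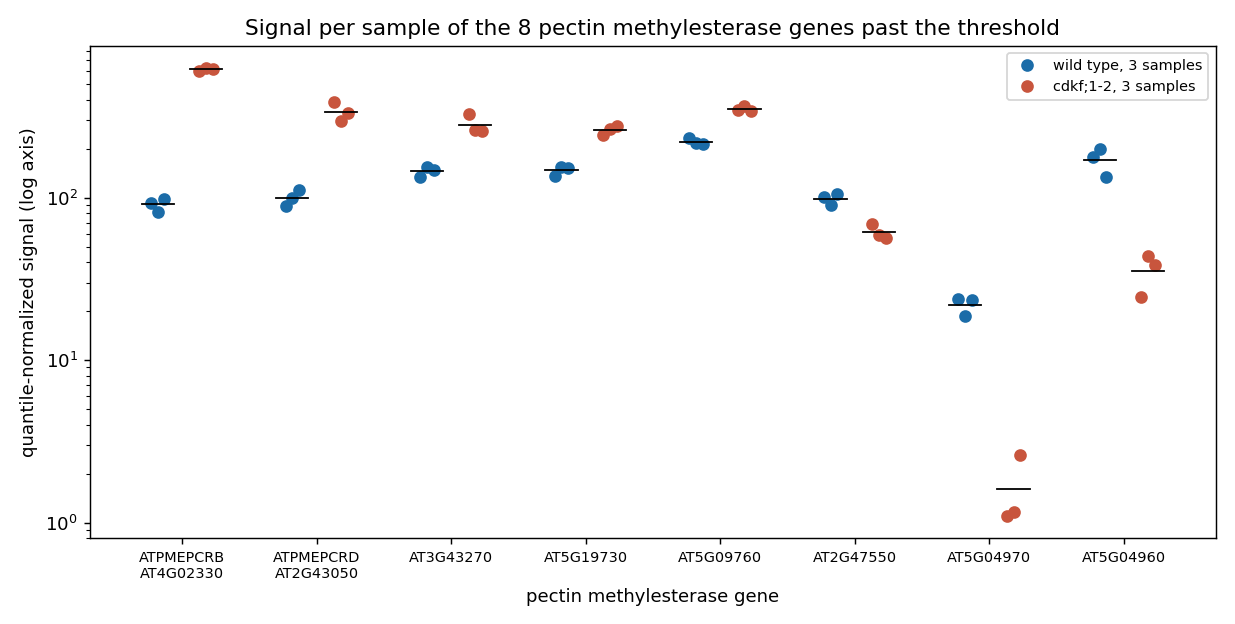
Quantile-normalized signal (log axis) of the 8 pectin methylesterase genes past the threshold, by gene. Each point is 1 sample (blue wild type, red cdkf;1-2, 3 each) and each black line is a group mean. The groups do not overlap for any of the 8 genes, and mutant signals of AT5G04970 lie between 1.097 and 2.59.

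ATPMEPCRB, or PME41, is a member that has been linked to brassinosteroid signalling under chilling. Its signals were 92.3, 81.4 and 98.7 in the wild type samples and 604, 625 and 623 in the mutant samples, here and below in the order of replicates 1 to 3. All 3 mutant samples stood far above all 3 wild type samples, and the replicates of each genotype lay close together. The difference was log2 2.57 (SE 0.12, n = 3 per group, limma adjusted p = 0.000116). Its neighbour on the chromosome, AT4G02320, another member, had signals of 5.89, 5.54 and 5.57 in wild type and 7.72, 7.50 and 6.85 in the mutant. These groups did not overlap either, but the difference was log2 0.11 (SE 0.11, limma adjusted p = 0.57) and did not pass.

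ATPMEPCRD is named as a pectin methylesterase in the reference table, and no role is given for it there. Its signals were 88.3, 99.7 and 111 in wild type and 385, 295 and 332 in the mutant. The lowest mutant sample was above the highest wild type sample by more than the range of either group. The difference was log2 1.61 (SE 0.15, limma adjusted p = 0.000968).

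The 3 other rises were in genes known here by locus only, and they were smaller. AT3G43270 had signals of 133, 155 and 147 in wild type and 327, 260 and 259 in the mutant, a rise of 1.84-fold (log2 0.88, SE 0.14, limma adjusted p = 0.00715). Mutant replicate 1 was the highest of its group for this gene. AT5G19730 had 135, 155 and 152 in wild type and 244, 266 and 276 in the mutant, a rise of 1.71-fold (log2 0.77, SE 0.12, limma adjusted p = 0.00688). AT5G09760 had 231, 217 and 213 in wild type and 347, 369 and 341 in the mutant, a rise of 1.56-fold (log2 0.64, SE 0.11, limma adjusted p = 0.0107). In each of these genes the groups were apart by more than the range of the wild type samples. All 3 calls ended on the deposited signals without normalization (limma adjusted p = 0.166, 0.338 and 0.394), where the differences were log2 0.79, 0.69 and 0.58. The call of AT5G09760 also ended without wild type replicate 2 (log2 0.63, limma adjusted p = 0.0517).

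AT5G04960 and AT5G04970 are neighbouring members on chromosome 5, and both fell. AT5G04960 had signals of 177, 199 and 135 in wild type and 24.4, 43.8 and 38.4 in the mutant. Every mutant sample was below every wild type sample, and mutant replicate 1 was the lowest. The difference was log2 -1.86 (SE 0.20, limma adjusted p = 0.00186), and log2 -1.23 when 64 was added in place of 16. AT5G04970 had signals of 23.7, 18.8 and 23.3 in wild type and 1.097, 1.16 and 2.59 in the mutant. The difference was log2 -1.104 (SE 0.12, limma adjusted p = 0.00191). With mutant signals this low its size depends on the added constant, and it was log2 -3.17 with 1 and -0.39 with 64, past the threshold with both.

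The only measured marker of roots moved in the same direction. EXPA7 had signals of 101, 101 and 94.1 in wild type and 4.41, 39.8 and 53.7 in the mutant, so its groups did not overlap. It did not pass (log2 -1.42, SE 0.41, limma adjusted p = 0.062). This is 1 of the 5 root markers in the list, and its part in the falls of AT5G04960 and AT5G04970 was not tested. RHS12, a member named for its expression in root hairs, was among the 17 loci not analysed here.

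AT2G47550 was the third member that fell. Its signals were 100.2, 90.0 and 105 in wild type and 69.1, 58.9 and 56.6 in the mutant, and the groups did not overlap. The difference was log2 -0.56 (SE 0.13, limma adjusted p = 0.0256). This call ended in 8 of 15 alternative settings, among them the deposited signals (log2 -0.65, limma adjusted p = 0.163), median centring (log2 -0.56, limma adjusted p = 0.0585) and spike scaling (log2 -0.38, limma adjusted p = 0.134). It also ended when wild type replicate 1, 2 or 3 or mutant replicate 2 or 3 was left out (limma adjusted p = 0.083, 0.0655, 0.0798, 0.0841 and 0.0868).

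**Figure D2:**
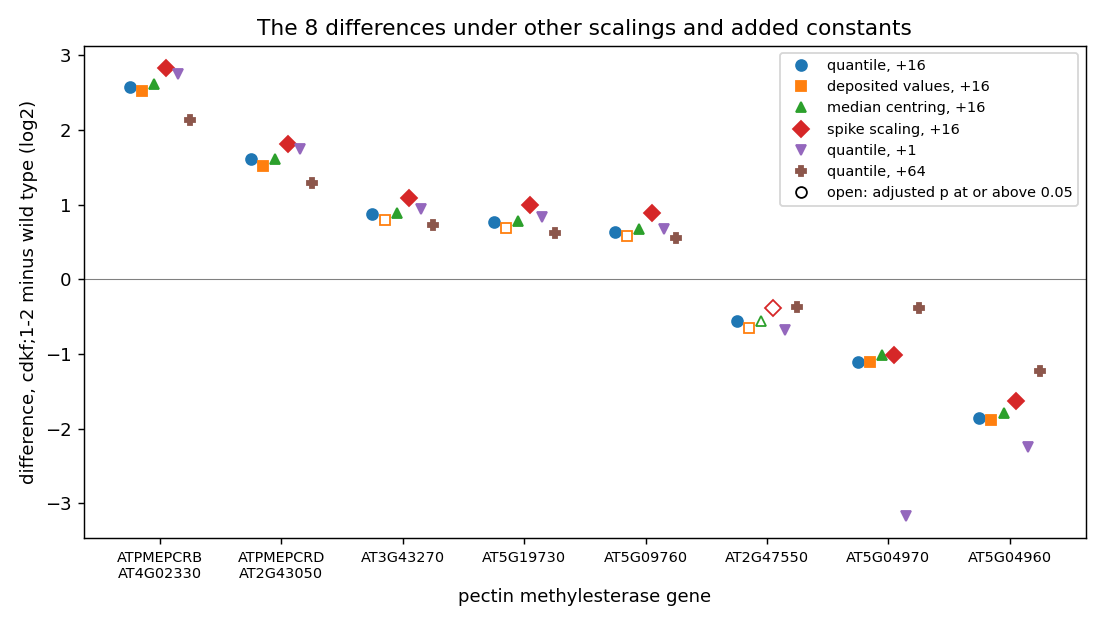
Difference between cdkf;1-2 and wild type (log2) for the 8 genes past the threshold, under 6 combinations of array scaling and added constant, which are shown by marker shape. Filled markers are past the threshold and open markers are not. ATPMEPCRB, ATPMEPCRD, AT5G04960 and AT5G04970 keep filled markers throughout, while AT2G47550 has 3 open ones.

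Of the 10 members with the highest mean signal, AT3G49220, AT3G10720 and PMEPCRF did not pass. The mean is over both genotypes, so a gene high in a single genotype can enter through its own change. Brighter probe sets were also called more often on the whole array, 26.2% without the 40% dimmest against 14.4% with all. AT3G49220 had signals of 1577, 1436 and 1263 in wild type and 1453, 1401 and 1283 in the mutant, which overlapped (log2 -0.04, SE 0.13, limma adjusted p = 0.875). AT3G10720 had 859, 863 and 780 in wild type and 1270, 986 and 986 in the mutant. All mutant samples were above wild type, but the difference of log2 0.36 (SE 0.14) had a limma adjusted p = 0.144, and mutant replicate 1 was the highest. With spike scaling AT3G10720 passed (log2 0.76, limma adjusted p = 0.0277). PMEPCRF (AT5G53370) had 349, 280 and 297 in wild type and 495, 304 and 335 in the mutant, again with mutant replicate 1 the highest and with overlapping groups (log2 0.25, SE 0.20, limma adjusted p = 0.451). Without that sample the difference of PMEPCRF was log2 0.05.

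The 3 largest differences among members that did not pass were in genes with low signals. AT1G23200 had 52.9, 48.9 and 68.6 in wild type and 55.0, 19.1 and 31.2 in the mutant (log2 -0.56, SE 0.26, limma adjusted p = 0.194). AT3G60730 had 5.37, 1.41 and 1.62 in wild type and 1.93, 14.8 and 18.4 in the mutant (log2 0.51, SE 0.25, limma adjusted p = 0.222). In both genes mutant replicate 1 lay among the wild type values while the other mutant samples were apart. Without that sample AT1G23200 passed as lower (log2 -0.86, limma adjusted p = 0.0288) and AT3G60730 as higher (log2 0.82, limma adjusted p = 0.0148). AT2G26450 had 31.8, 17.0 and 5.17 in wild type and 2.81, 5.24 and 13.4 in the mutant, with a spread inside each genotype as wide as the difference between them (log2 -0.50, SE 0.31, limma adjusted p = 0.332).

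Many members were dim. In 20 of the 40 no sample had a signal above 30, and for these the added 16 shrinks a difference on the log2 scale. Their differences ran from log2 -1.104, that of AT5G04970, to 0.51.

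**Figure D3:**
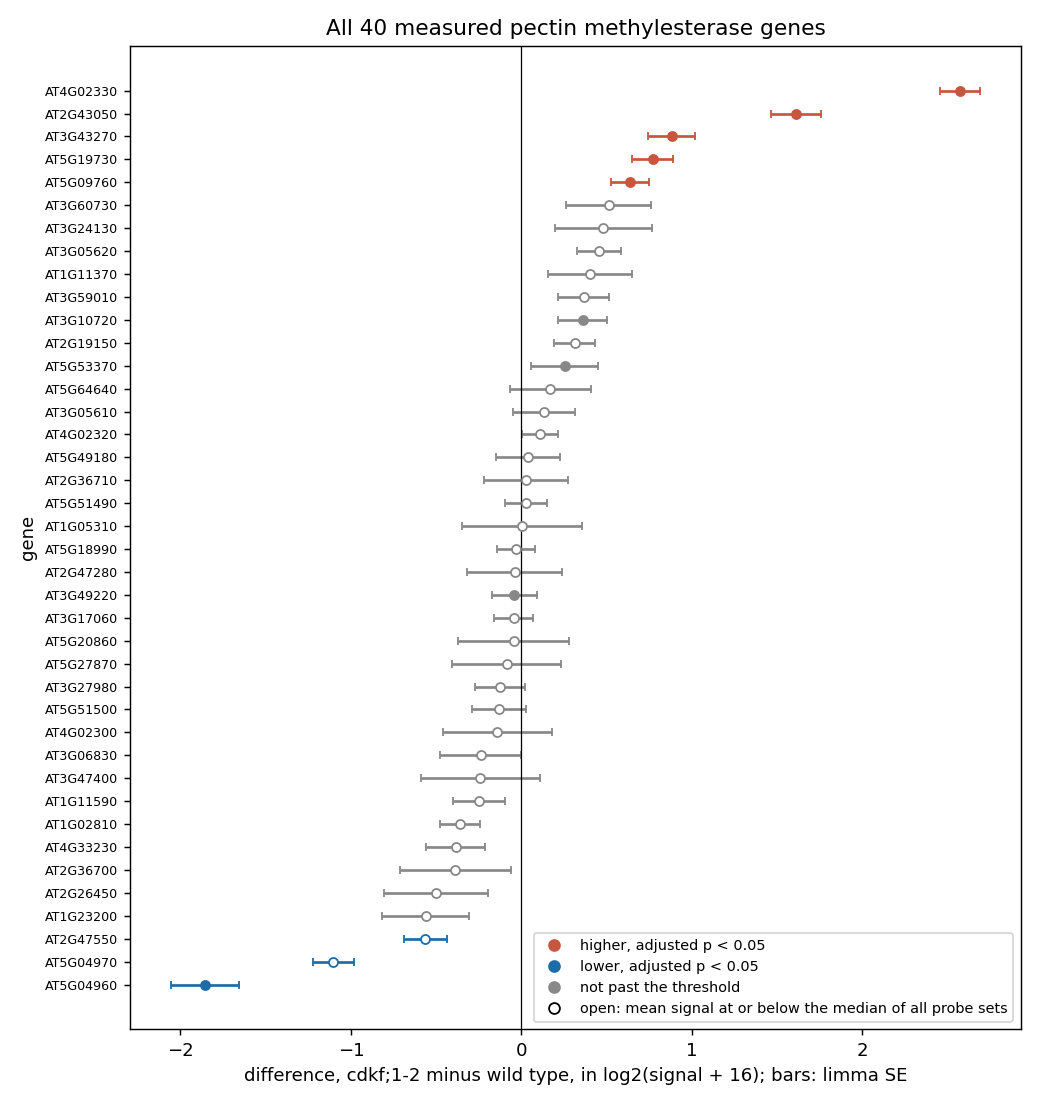
Difference between cdkf;1-2 and wild type in log2(signal + 16) for all 40 measured pectin methylesterase genes, sorted by size, with bars for the limma SE. Red and blue points are past the threshold and grey points are not, and open points have a mean signal at or below the median of all probe sets. The values run from -1.86 to 2.57, and 10 of the grey points lie within 0.1 of 0.

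The 25 members outside the naming rule had signals from 0.102 to 95.2 and differences from log2 -0.39 to 0.48, and 0 of them passed. AT3G05620 came nearest, with 63.3, 51.2 and 59.9 in wild type and 79.2, 95.2 and 82.0 in the mutant (log2 0.45, SE 0.13, limma adjusted p = 0.0576), and is named after its values were seen. Its groups did not overlap, and it passed without the 40% dimmest probe sets (limma adjusted p = 0.0339) and with 64 added (log2 0.29, limma adjusted p = 0.0451). PME61, also named PME35 and known from the strength of the stem, had 16.0, 19.1 and 18.6 in wild type and 36.2, 21.3 and 26.7 in the mutant (log2 0.36, SE 0.15, limma adjusted p = 0.16). AT1G02810 had 76.5, 69.3 and 71.7 in wild type and 55.7, 47.9 and 55.6 in the mutant, without overlap (log2 -0.36, SE 0.12, limma adjusted p = 0.0857). PME61 and AT1G02810 are likewise named after their values were seen.

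The genotypes did not overlap in 15 of the 40 members, 37.5%, with the mutant higher in 11 and lower in 4. Over all probe sets this share was 33.9%, with 15.8% higher and 18.1% lower. Single samples also stood apart within a genotype. Mutant replicate 1 was the highest of the 6 samples in 12 of the 40 members and the lowest in 6. The other samples were each the highest in 4 to 8 members and the lowest in 5 to 9. These counts were not made over all probe sets, and 20 of the 40 members had no signal above 30. In a pair of dim genes, named after their values were seen, mutant replicate 1 was the lowest. AT3G47400 had 8.92, 45.3 and 45.4 in mutant replicates 1 to 3 and 31.0 to 46.5 in wild type (log2 -0.24, SE 0.35). AT1G05310 had 5.09, 33.9 and 39.8 in the mutant and 17.2 to 27.5 in wild type (log2 0.00, SE 0.35). SEs over the 40 members ran from 0.11 to 0.35.

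Some members lie side by side in the genome. In the RefSeq gene order 12 pairs of neighbouring genes were both members, and in 5 pairs both were measured. In the pair of AT5G04960 and AT5G04970 both fell. In the pair of AT4G02320 and ATPMEPCRB the second passed and the first did not. Both were higher in every mutant sample, but AT4G02320 had signals of only 5.54 to 7.72 and a difference of log2 0.11 (SE 0.11). The difference between the 2 genes of a pair was not tested. In the other 3 pairs 0 genes passed. These were AT2G36700 with AT2G36710 (log2 -0.39 and 0.03), AT3G05610 with AT3G05620 (log2 0.13 and 0.45) and AT5G51490 with AT5G51500 (log2 0.03 and -0.13). Whether probe sets of close relatives cross-react was not tested.

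The shared probe sets listed for VGD1, VGDH1 and PPME1, members of pollen, gave almost no signal in these seedlings. The probe set shared by VGD1, needed for pollen tube growth, and its relative VGDH1 had signals from 0.867 to 2.63 over the 6 samples. The probe set that PPME1, a pollen-specific member, shares with AT5G07410 had signals from 0.207 to 4.30. Neither passed (log2 -0.04 and -0.07, limma adjusted p = 0.862 and 0.802). The pollen member VGDH2 and QRT1, which acts in the separation of pollen grains, were not analysed here, nor were PME1, PME2, PME3, PME5, PME17, PME31 and PME44.

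Genes that act on the same polymer were taken from 7 lists of textbook members. Of 32 pectin methylesterase inhibitors 19 were measured, of which 5 rose, 1 fell and 13 did not pass, with a list median of log2 0.14. This is 31.6% called against 14.4% of all probe sets. Without wild type replicate 1 limma called 3 of the 19, against 8.08% of all probe sets. Without mutant replicate 2 it again called 3, against 8.23%. On the deposited signals it called 0 against 1.44%, with 5 of the 19 at an unadjusted p under 0.05. Whether the inhibitors differ from the array in the share called was not tested. AT4G25260 rose most, from signals of 587, 546 and 559 in wild type up to 1436, 1380 and 1588 in cdkf;1-2 (log2 1.35, SE 0.12, limma adjusted p = 0.000817). AT4G25250, next to it in locus number, fell from 32.1, 45.3 and 59.0 to 2.37, 2.68 and 26.6 (log2 -1.31, SE 0.34, limma adjusted p = 0.0435), a call that ended in 9 of 14 alternative settings, with log2 -2.69 when 1 was added in place of 16 and -0.56 with 64. AT3G47380 rose 2.03-fold and AT2G01610 rose 1.94-fold (log2 1.02 and 0.96).

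Of 57 polygalacturonases 41 were measured, of which 4 rose, 5 fell and 32 did not pass, with a median of log2 0.02. That makes 22.0% called, against 14.4% of all probe sets. The split depended on the scaling, with 1 higher and 5 lower under median centring and 4 higher and 1 lower under spike scaling. Over all probe sets limma called 11% and 9.59% in these settings, with 58.5% and 80.4% of the calls higher. On the deposited signals the split was 0 higher and 1 lower, against 1.44% of all probe sets called. On the normalized signals it was 1 higher and 2 lower without wild type replicate 2, against 6.58% of all probe sets called. It was 1 higher and 4 lower without wild type replicate 1 or 3 or mutant replicate 2, against 8.08%, 8.88% and 8.23%. AT1G10640 fell from signals of 289, 167 and 200.4 in wild type down to 53.8, 74.7 and 54.2 in cdkf;1-2 (log2 -1.59, SE 0.21, limma adjusted p = 0.00401). AT3G15720 rose from 38.6, 41.3 and 43.9 to 98.9, 118 and 111 (log2 1.13, SE 0.12, limma adjusted p = 0.00182). AT1G65570 and AT5G41870 fell by 0.84 and 0.83 on the log2 scale, and with spike scaling neither passed (limma adjusted p = 0.0771 and 0.0783). Of 26 pectate lyases 23 were measured, of which 3 rose, 1 fell and 19 did not pass, with a median of log2 0.04. That makes 17.4% called, against 14.4% of all probe sets. On the deposited signals limma called 0 of the 23 against 1.44% of all probe sets, with 4 at an unadjusted p under 0.05. AT1G67750 rose from 106, 76.9 and 104 to 245, 289 and 274 (log2 1.36, SE 0.15, limma adjusted p = 0.00199). AT5G48900 and AT3G53190 rose 1.66-fold and 1.60-fold, and AT3G09540 fell by 0.81 on the log2 scale. The calls of AT3G53190 and AT3G09540 ended in some of the alternatives. Of the 20 calls in all these lists 1 held on the deposited signals, that of AT1G10640 (log2 -1.64, limma adjusted p = 0.0318). Over all probe sets limma called 3267 on the normalized signals and 328 on the deposited signals.

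**Figure D4:**
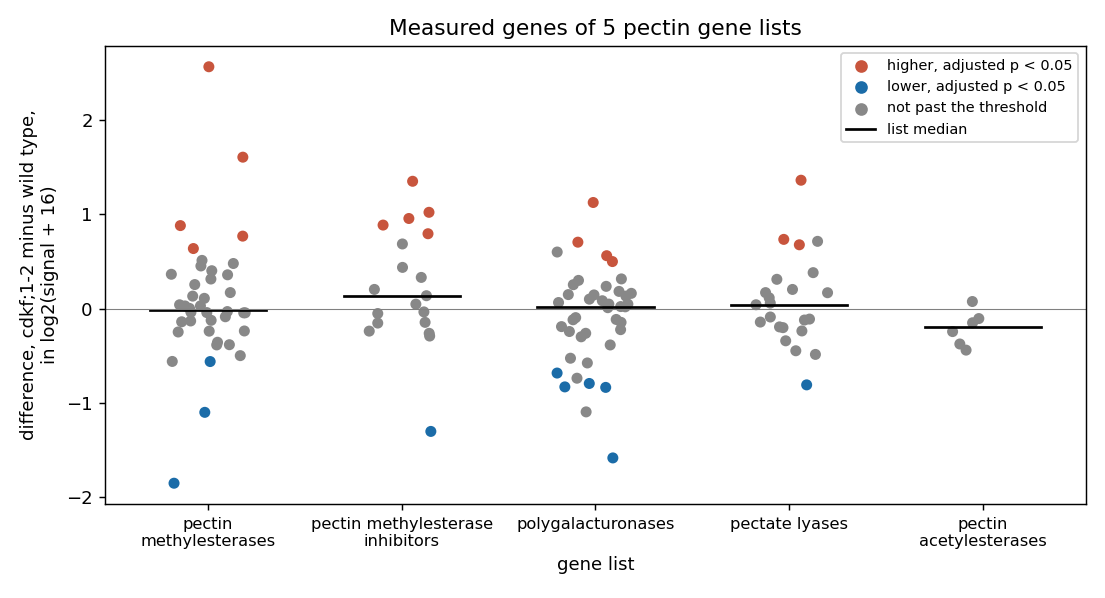
Difference between cdkf;1-2 and wild type in log2(signal + 16) for the measured genes of 5 pectin gene lists, 1 point per gene, with a black line at each list's median. Red and blue points are past the threshold, and sideways position within a list carries no meaning. The medians lie at -0.02, 0.14, 0.02, 0.04 and -0.20 from left to right.

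The remaining lists held few measured genes. Of 12 pectin acetylesterases, which remove acetyl groups from pectin, 6 were measured and 0 passed in limma's test, with 1 lower and 0 higher at an unadjusted p under 0.05 and a median of log2 -0.20. Of 19 genes of pectin chain synthesis and methylation 2 were measured. AT3G49720 fell (log2 -0.65, SE 0.15, limma adjusted p = 0.0271), a call that ended in 8 of 15 alternative settings, and GAUT15 did not pass (log2 0.27, SE 0.19). The 3 subtilases SBT3.5, ARA12 and S1P, listed here for a link to members of the family, had differences of log2 0.36, 0.13 and -0.10. Of these 0 passed in limma's test, with 0 at an unadjusted p under 0.05. Of 6 pectin-binding receptor kinases 1 was measured. This was FER, a receptor of cell wall and growth signals, which did not pass (log2 -0.45, SE 0.19, limma adjusted p = 0.162).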

How the data were processed

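The authors deposited 1 linear intensity per probe set and sample, 22810 probe sets in 6 samples of total RNA. They were made with GCOS, the array maker's software, per the submitters' processing notes. The sources used here give no settings, scaling between arrays or genome build, and the deposited column medians differ. Here the intensity values of all probe sets were quantile-normalized together, and log2(signal + 16) was used from there on. After removal of 64 control probe sets, limma 3.58.1 under R 4.3.3 was run on the remaining 22746 (functions lmFit and eBayes, two-sided) with genotype as the sole factor, with Benjamini-Hochberg adjustment over all of them and no filter. The fit was tested on simulated data. Of the probe sets tested, 13513 were annotated with 1 gene, 503 with several and 8730 were not listed. Loci were matched through gene IDs to the RefSeq table of TAIR10.1, whose coordinates are not printed.

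The members, the gene lists, the scaling and the alternatives were chosen with earlier results of these data known. The text names every member past the threshold, the 10 members with the highest mean signal, the 3 with the largest difference among those that did not pass, measured neighbours of any of these, and up to 4 genes past the threshold of each other list. Alternatives were 3 other scalings of the arrays, leaving out the 40% dimmest probe sets, added constants of 1 and 64, a trended and robust prior variance, the replicate number as a block, averaging over the probe sets of a gene, and each sample left out.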

Additional observations from a re-analysis of the deposited data

How the results depend on the processing

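Of the 40 members 8 were called, 5 higher and 3 lower. On the deposited signals 4 were called, 2 higher and 2 lower, and all 4 were among the 8. Over all probe sets 3267 were called, against 328 on the deposited signals and 2122 with 1 added in place of 16. Leaving out 1 sample gave 6 to 10 called members, 4 to 6 higher and 2 to 4 lower, and 1496 to 4107 called probe sets. Over all probe sets the count moved by over 1.5 times without wild type replicate 1 (1837), 2 (1496) or 3 (2019) and without mutant replicate 2 (1873) or 3 (1865). The genes of the other pectin lists gave 20 calls, with 1 on the deposited signals and 13 with spike scaling, where 2181 of all probe sets were called. These genes gave 10 to 20 calls with 1 sample left out. Their alternatives were added after the data were seen. The call of AT3G09540 ended on the deposited signals, with spike scaling and without wild type replicate 1 or 2 or mutant replicate 3 (limma adjusted p = 0.142, 0.0783, 0.0675, 0.0788 and 0.0641). That of AT3G53190 ended on the deposited signals, with 1 added and without any one sample but wild type replicate 1 (limma adjusted p = 0.0506 to 0.287). That of AT1G65570 also ended without wild type replicate 2 or 3 or mutant replicate 3 (limma adjusted p = 0.0747, 0.0578 and 0.0589), and that of AT5G41870 without wild type replicate 2 (limma adjusted p = 0.0572). Apart from the exceptions given with each gene, the 8 members kept their direction and call in the settings run, which without the 40% dimmest probe sets do not include AT5G04970. The cause of the other changes was not tested.

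With the replicate number as a block 8 members were called, all among the 8, and 3382 probe sets. Same-numbered samples deviated together at r = 0.30, 0.01 and 0.15 for numbers 1 to 3, and the 0.30 was the highest of any pair. Wild type replicate 2 correlated best with mutant replicate 3 (r = 0.10). Wild type replicate 3 correlated about equally with mutant replicates 2 (r = 0.153) and 3 (r = 0.15). Whether same-numbered samples share more than a number was not tested. Each member had 1 probe set, so averaging over a gene's probe sets changed no member's value. Leaving out the 40% dimmest probe sets, by the mean over both genotypes, kept 13 members in the test, of which 8 were called. Over all probe sets kept, 3575 of 13647 were called, or 26.2%. Of these 8 members 7 were among the 8 called with all probe sets, and AT3G05620 was the other. Detection calls were not used, so it is not stated which dim members lay above background.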
